A study of Mus musculus with 6 samples.

Results

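Lcn2, Ltf, Slpi, Wfdc2, Saa1, Saa3, C3, Cfb, Pglyrp1 and Camp are 10 genes of epithelial defence: antimicrobial proteins, antiproteases, acute phase proteins and complement components. They were picked by symbol, led by Lcn2 and Ltf, from the 36528 gene models of the files, and all 10 had a row in every file. The pick was made with the difference between the groups known, so the differences of these 10 genes are given as descriptions and no test is read for them. The libraries hold polyadenylated RNA of primary melanocytes, the pigment cells, from mouse skin: 3 are labelled BAP1 KO and 3 are labelled WT. The genotype word is the only thing that parts the groups in the labels, which name no allele, Cre driver, strain, age or treatment. No label says that the 3 libraries of a group came from separate animals or cultures, so every p-value here reflects library-to-library spread alone, possibly technical.

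Surface epithelia and the granules of neutrophils share much of this equipment. Lcn2 (lipocalin 2) binds bacterial siderophores and so withholds iron, Ltf (lactoferrin) binds iron itself, Pglyrp1 binds the peptidoglycan of bacterial walls, and Camp is the precursor of the cathelicidin peptide. Slpi blocks neutrophil elastase and related proteases, and Wfdc2, also known as HE4, carries the same four-disulfide core fold. Saa1 and Saa3 are serum amyloid A proteins of the acute phase response, C3 is the component on which all complement routes converge, and Cfb is the protease precursor of the alternative route. In skin, keratinocytes make many of them, and NF-kappaB and C/EBP factors downstream of IL-1, IL-17 and TNF are known inducers.

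Total reads per library were 36447473 to 43773769 with the BAP1 KO label and 33987690 to 40025282 with the WT label. Levels are CPM, library-scaled read counts after TMM correction, and 17121 gene models passed the count filter. Bap1 itself, the targeted gene, was at 73.6, 77.3 and 72.5 CPM in BAP1 KO-labelled libraries and at 55.7, 55.6 and 55.8 CPM in WT-labelled ones, so its level over all exons was not lower under the knockout label. Directions below therefore rest on the labels alone. The 12 melanocyte markers summed to between 63560 and 64383 CPM in BAP1 KO-labelled libraries and between 6716 and 6794 CPM in WT-labelled ones, so the labelled cell type was present in both groups. The 24 keratinocyte markers found in the files summed to between 1240 and 1305 CPM with the BAP1 KO label and between 17445 and 17793 CPM with the WT label. In bulk RNA, fewer cells of a type and less RNA per cell cannot be told apart.

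Of the 10 genes, 8 passed the count filter, and Ltf and Pglyrp1 did so only through the WT libraries. Against an adjusted p under 0.05 in edgeR's quasi-likelihood test, 7 were lower and 1, Cfb, was higher in BAP1 KO-labelled libraries. Over all tested genes 42.1% were lower and 39.4% higher, 81.5% in all. The groups did not overlap for any of the 8, as for 82.7% of all tested genes, 42.6% lower and 40.1% higher in this way. Nothing is read from these counts, since the pick used the contrast. The median log2 fold change of the 8 was -4.05, beside -0.03 over all tested genes. The 10 genes together reached 130.9, 137.3 and 127.3 CPM in BAP1 KO-labelled libraries and 2517, 2432 and 2719 CPM in WT-labelled ones. Within the WT group, replicate 3 (numbered here in listing order) held the highest level of all 8 genes.

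**Figure D1:**
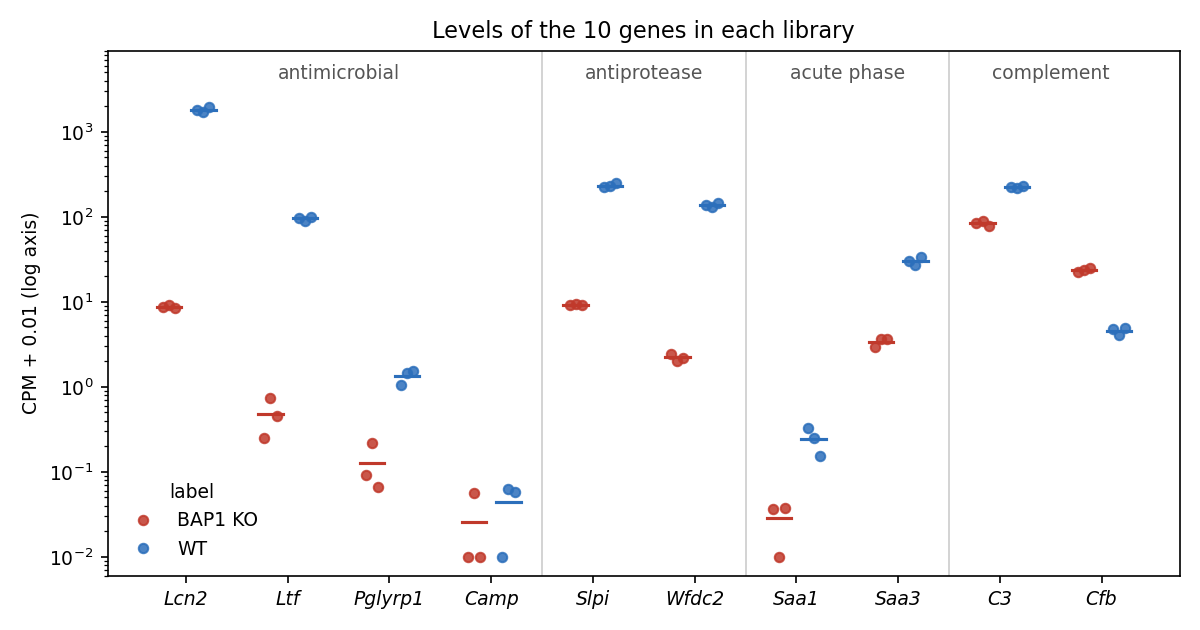
CPM plus 0.01 on a log axis for each of the 10 genes in the 3 libraries labelled BAP1 KO (red, left) and the 3 labelled WT (blue, right); points are libraries and bars are group means. Cfb is the one gene of the 8 that passed the filter whose red points lie above the blue, and Camp lies near 0 in both groups.

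Lcn2 (chromosome 2, 32384637 to 32387739 on GRCm38, minus strand, 5 merged exons) had 8.76, 9.15 and 8.48 CPM in BAP1 KO-labelled libraries, against 1797, 1730 and 1955 CPM in WT-labelled ones. All 3 WT libraries stood far above all 3 labelled BAP1 KO, and the spread within each group was small beside the gap. The log2 fold change was -7.70 (SE 0.065), a 207-fold lower level. Lcn2 took 0.000834% to 0.000891% of all reads with the BAP1 KO label and 0.175% to 0.201% with the WT label. Of the 17121 tested genes, 8 had a more negative fold change.

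Ltf (chromosome 9, 111019292 to 111042766, plus strand, 18 merged exons) had 0.243, 0.727 and 0.446 CPM in BAP1 KO-labelled libraries, against 97.5, 89.6 and 100.5 CPM in WT-labelled ones. The 3 low values rest on 9, 31 and 16 reads, and their SD was 51.5% of the mean, whereas the WT libraries held 3388, 3370 and 4144 reads. The log2 fold change was -7.62 (SE 0.15), next to that of Lcn2 although both genes lie on different chromosomes.

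Pglyrp1 (chromosome 7, 18884690 to 18890438, plus strand) was scarce throughout, with 0.0809, 0.211 and 0.0558 CPM in BAP1 KO-labelled libraries and 1.04, 1.46 and 1.53 CPM in WT-labelled ones. These are 3, 9 and 2 reads against 36, 55 and 63, and the log2 fold change of -3.45 carried the widest error of the 8 genes (SE 0.36). Camp (chromosome 9, 109847377 to 109849456) was read 0, 2 and 0 times with the BAP1 KO label and 0, 2 and 2 times with the WT label. No library reached 3 reads, so no fold is given and a difference was not detectable at this depth. Lactoferrin and cathelicidin are both stored in neutrophil granules. The cell source of the Ltf reads was not tested.

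Both antiproteases were lower with the BAP1 KO label. Slpi (chromosome 2, 164354070 to 164356507, minus strand) had 9.14, 9.38 and 9.20 CPM in BAP1 KO-labelled libraries, against 224, 229 and 247 CPM in WT-labelled ones. The groups lay far apart, and the log2 fold change was -4.66 (SE 0.056). Wfdc2 (chromosome 2, 164562715 to 164568510, plus strand) had 2.45, 1.99 and 2.17 CPM in BAP1 KO-labelled libraries and 139, 132 and 147 CPM in WT-labelled ones, a log2 fold change of -5.98 (SE 0.077). Slpi and Wfdc2 lie 206 kb apart in the cluster of WAP-domain genes, and their fold changes differed, 25.2-fold lower for Slpi and 63.3-fold lower for Wfdc2.

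Saa3 was the one serum amyloid A gene of the 10 with enough reads to be tested. Saa3 (chromosome 7, 46711998 to 46719615, minus strand) had 2.91, 3.63 and 3.60 CPM in BAP1 KO-labelled libraries, against 29.9, 27.2 and 33.3 CPM in WT-labelled ones. The groups did not overlap, and the log2 fold change was -3.15 (SE 0.10). Saa1 (chromosome 7, 46740497 to 46743181, minus strand), 20.9 kb from Saa3, had 1, 0 and 1 reads with the BAP1 KO label and 11, 9 and 6 reads with the WT label, too few to be tested. The summed WT level was 13.2 times the summed BAP1 KO level, with an exact 95% interval of 3.31 to 115 that covers counting error only. Of the 50-base stretches of Saa1 transcripts, 31.1% are also in Saa2, which had 0 reads in all 3 libraries labelled BAP1 KO and 1, 1 and 0 in WT-labelled ones, so the split between Saa1 and Saa2 is uncertain.

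The complement pair went opposite ways. C3 (chromosome 17, 57203967 to 57228136, minus strand, 42 merged exons) had 84.7, 88.2 and 78.4 CPM in BAP1 KO-labelled libraries, against 223, 219 and 230 CPM in WT-labelled ones. This was the smallest difference of the 8 genes, a log2 fold change of -1.42 (SE 0.049) or a 2.67-fold lower level. Cfb (chromosome 17, 34856374 to 34862514, minus strand, 17 merged exons) had 22.6, 23.9 and 25.0 CPM in BAP1 KO-labelled libraries and 4.75, 4.04 and 4.88 CPM in WT-labelled ones. Every library labelled BAP1 KO lay above every library labelled WT, with a log2 fold change of 2.39 (SE 0.082), a 5.23-fold higher level. The Cfb counts are uncertain in origin. C2 lies 87 bases upstream on the same strand, and 79.5% of the exon bases of Cfb are also exons of Gm20547, a model that spans both genes. C2, named after its values were seen, was higher too, at 703 ± 16.3 CPM with the BAP1 KO label and 55.8 ± 2.97 CPM with the WT label (SD, n = 3 each). What part of the Cfb reads came from transcripts that run through from C2 was not tested.

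The promoters of Lcn2, Ltf, Saa3 and C3 are shown because these 4 genes span the range of the lower levels, from the largest difference to the smallest, and are textbook targets of C/EBP factors, NF-kappaB or both. Each line gives the 250 bases just upstream of the RefSeq transcript start on GRCm38.p6, 5′ to 3′ on the strand of the gene: chr2:32387740-32387989 (minus), chr9:111019042-111019291 (plus), chr7:46715677-46715926 (minus) and chr17:57228137-57228386 (minus). Capitals mark matches to the C/EBP pattern TTNNGNAA on either strand. The Saa3 window lies inside the gene span given above, so its transcript start is not the outermost end of that span. The Saa1 window, counted below but not printed, partly overlaps the span of Saa1.
Lcn2: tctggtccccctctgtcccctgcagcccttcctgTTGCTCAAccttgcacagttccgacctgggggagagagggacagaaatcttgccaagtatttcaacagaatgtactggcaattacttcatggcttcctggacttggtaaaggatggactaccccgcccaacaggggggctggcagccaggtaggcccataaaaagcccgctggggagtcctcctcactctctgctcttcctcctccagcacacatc
Ltf: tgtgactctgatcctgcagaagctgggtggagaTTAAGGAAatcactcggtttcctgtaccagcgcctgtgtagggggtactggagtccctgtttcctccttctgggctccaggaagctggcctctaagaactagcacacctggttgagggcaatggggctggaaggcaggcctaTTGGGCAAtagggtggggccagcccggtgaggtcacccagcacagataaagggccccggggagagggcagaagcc
Saa3: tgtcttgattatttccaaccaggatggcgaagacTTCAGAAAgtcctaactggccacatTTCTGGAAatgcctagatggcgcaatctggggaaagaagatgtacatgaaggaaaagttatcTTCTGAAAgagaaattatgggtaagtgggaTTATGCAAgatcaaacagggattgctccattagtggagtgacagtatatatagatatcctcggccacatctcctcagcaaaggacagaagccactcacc
C3: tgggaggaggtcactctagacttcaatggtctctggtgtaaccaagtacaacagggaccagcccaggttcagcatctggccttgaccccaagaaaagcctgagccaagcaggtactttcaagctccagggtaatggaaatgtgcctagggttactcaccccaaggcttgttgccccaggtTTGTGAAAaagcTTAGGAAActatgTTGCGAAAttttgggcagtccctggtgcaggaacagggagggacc
RefSeq gave a promoter for 9 of the 10 genes. The pattern was present in the 250 bases of 7 of these 9, beside 36.9% of 27025 promoters of all genes and 28.6% of the 12365 promoters of tested genes. Saa3 held 4 matches and C3 held 3, all 3 of C3 within the 70 bases before the start. The kappaB consensus, searched on both strands, matched Pglyrp1 alone, as GGAAAGTCCC from 93 to 84 bases before the start, beside 7.01% of all promoters. The AP-1 pattern TGANTCA, the STAT pattern TTCNNNGAA and the TATA box letters TATAAA had no match in the 9 windows, beside 6.87%, 7.18% and 13% of all promoters. A match is a string of letters and not a bound site, and sites farther upstream lie outside these windows.

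Because reads grow with transcript length, the genes were ranked among themselves per kilobase of merged exon (RPKM). With the WT label Lcn2 led at 697 ± 44.0 RPKM, then Slpi at 198 ± 10.3, Wfdc2 at 122 ± 6.37, C3 at 43.6 ± 1.14, Ltf at 27.8 ± 1.63 and Saa3 at 11.6 ± 1.17 RPKM, with no overlap between neighbours (SD, n = 3 libraries). The authors' mean RPKM, which rests on other gene lengths, put Saa3 at 52.5, above C3 at 40.3 and Ltf at 32.3, with the WT label. With the BAP1 KO label C3 led at 16.3 ± 0.968 RPKM, ahead of Cfb at 8.44 ± 0.415, Slpi at 7.83 ± 0.106, Lcn2 at 3.35 ± 0.128, Wfdc2 at 1.94 ± 0.203 and Saa3 at 1.30 ± 0.156 RPKM. Cfb and Slpi lay close there, with the lowest Cfb library at 8.01 and the highest Slpi library at 7.95 RPKM, and the authors' mean RPKM placed Slpi at 9.94 and Lcn2 at 9.72 above Cfb at 8.01. Lcn2, Slpi and Wfdc2 led with the WT label, and C3 with the BAP1 KO label, by both measures. By reads, Lcn2 made up 6.66% to 6.69% of the summed level of the 10 genes in BAP1 KO-labelled libraries and 71.1% to 71.9% in WT-labelled ones. C3 made up 61.6% to 64.7% with the BAP1 KO label and 8.47% to 8.99% with the WT label.

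The log2 fold changes of Lcn2 and Ltf were more negative than those of all 23 keratinocyte markers tested, which were all lower with the BAP1 KO label with a median log2 fold change of -4.19. The basal keratins Krt5 and Krt14 stood at 68.0 ± 4.01 and 96.4 ± 2.42 CPM in BAP1 KO-labelled libraries, and at 1231 ± 18.8 and 2001 ± 90.6 CPM in WT-labelled ones (SD, n = 3 each), log2 fold changes of -4.18 (SE 0.049) and -4.37 (SE 0.046). Of their 50-base stretches, 12.2% and 13.9% occur in other genes, mostly keratins. Involucrin (Ivl), of the cornified envelope, was the 1 marker with a fold change below that of Wfdc2, and 4 of the 23 lay below Slpi, whereas 19 lay below Saa3 and 21 below C3. Set against each 1000 CPM of summed keratinocyte markers in the same library, Lcn2 stood at 6.80, 7.01 and 6.83 in BAP1 KO-labelled libraries and at 103, 99.2 and 110 in WT-labelled ones, a 15.1-fold lower ratio. Ltf was 14.8-fold, Wfdc2 4.59-fold and Slpi 1.84-fold lower on this scale. Saa3 was 1.54-fold, C3 5.14-fold and Cfb 72.0-fold higher, while Pglyrp1 overlapped between the groups. These ratios use the values that the pick was made on and are a description, and the part of keratinocyte RNA in the levels of the 10 genes was not tested.

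**Figure D2:**
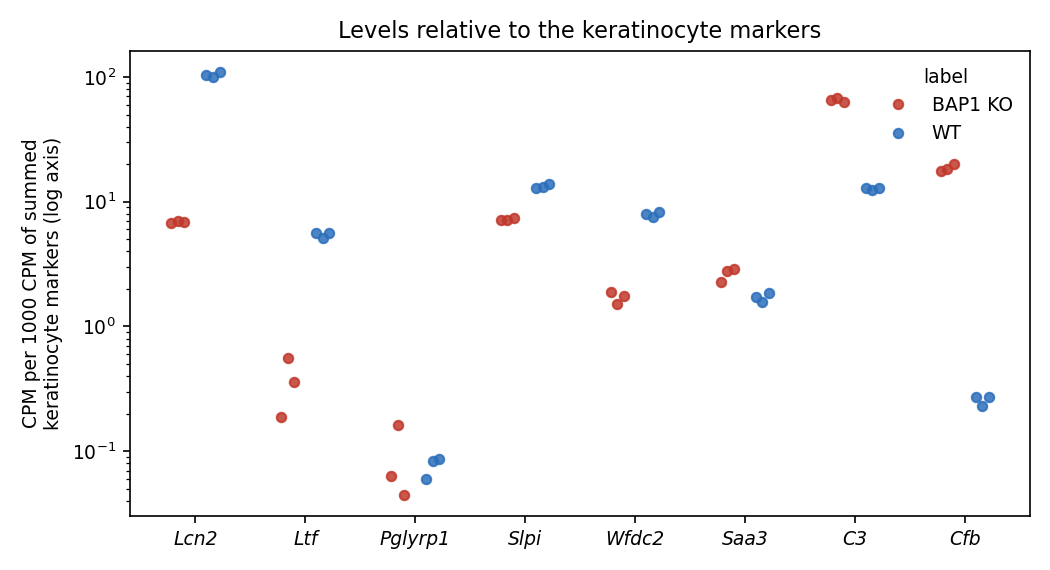
CPM of each of the 8 genes per 1000 CPM of the summed keratinocyte markers of the same library, on a log axis, in the 3 libraries labelled BAP1 KO (red, left) and the 3 labelled WT (blue, right). Lcn2, Ltf, Slpi and Wfdc2 lie lower in red, and Saa3, C3 and Cfb lie higher in red.

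Neutrophils are another known source of Lcn2, Ltf, Camp and Pglyrp1, and their markers ranged widely, from no read to 34.4 CPM on average with the WT label. The elastase gene Elane had 0, 1 and 0 reads in BAP1 KO-labelled libraries and 2, 1 and 0 in WT-labelled ones. Mpo (myeloperoxidase), of whose exon bases 15% overlap Gm11505, had 1 read in 1 library labelled BAP1 KO and 0 in the other 5. Ctsg, Fcnb and Retnlg, named after their values were seen, had 0 reads in all 6. Ltb4r1, a leukotriene receptor also named after its values were seen, averaged 0.383 CPM with the BAP1 KO label and 4.97 CPM with the WT label. The 20 neutrophil markers summed to between 24.7 and 25.1 CPM with the BAP1 KO label and between 92.6 and 99.2 CPM with the WT label. Of the 8 that passed the count filter, 5 were lower and 2 higher, and most of the WT sum was S100a8 and S100a9, which keratinocytes also make. S100a8 stood at 0.993 ± 0.137 CPM in BAP1 KO-labelled libraries and 34.4 ± 5.21 CPM in WT-labelled ones, and S100a9 at 0.686 ± 0.204 and 32.9 ± 1.27 CPM (SD, n = 3 each), log2 fold changes of -5.11 (SE 0.15, edgeR adjusted p = 1.6e-10) and -5.58 (SE 0.12, adjusted p = 9.8e-12). The integrin Itgam, at 9.84 ± 0.292 CPM with the BAP1 KO label and 12.3 ± 1.14 CPM with the WT label, fell by 0.32 on the log2 scale (edgeR adjusted p = 0.00345), though 68.7% of its exon bases overlap Gm49368. Mmp8, the neutrophil collagenase, averaged 11.4 ± 0.408 CPM with the BAP1 KO label and 9.94 ± 0.653 CPM with the WT label, higher by 0.19 (edgeR adjusted p = 0.0315), a call that was lost under 7 of the 14 alternatives. The 16 macrophage markers summed to between 257 and 262 CPM with the BAP1 KO label and between 63.9 and 72.4 CPM with the WT label, and of 15 tested 11 were higher and 3 lower. Lyz2 and Mrc1 were higher by 2.97 and 3.78 (edgeR adjusted p = 1.66e-12 and 8.11e-10), and Adgre1 fell by 0.83 (adjusted p = 1.17e-05). The part of neutrophil or macrophage RNA in the levels of the 10 genes was not tested.

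Other antimicrobial genes of epithelia were mostly lower with the BAP1 KO label. For this and every other list, the shares over all tested genes were 42.1% lower and 39.4% higher. Of 29 in the files, 20 were tested, of which 18 were lower and 2 higher, with a median log2 fold change of -3.50; 6 of the 20 passed the filter only through the WT libraries. Nos2, the inducible nitric oxide synthase, had the most negative value among those named by rule, -5.90 (SE 0.22). It stood at 0.110 ± 0.0731 CPM with the BAP1 KO label and 6.88 ± 0.203 CPM with the WT label. Nos2 passed the filter only through the WT libraries, with 1, 7 and 5 reads with the BAP1 KO label. The 2 higher genes were Lyz2, the lysozyme of macrophages, at 177 ± 4.72 CPM with the BAP1 KO label and 22.6 ± 1.12 CPM with the WT label, and the chitinase-like Chil3, at 82.6 ± 3.91 and 13.0 ± 0.717 CPM (log2 fold change 2.67, SE 0.059, edgeR adjusted p = 1.2e-11). Of the 50-base stretches of Chil3, 26.9% occur in other genes, Chil4 most of all, and 15.4% of those of Lyz2 occur in Lyz1. Pglyrp3, a relative of Pglyrp1 made by epithelia and named after its values were seen, had 3.94, 3.66 and 4.10 CPM in BAP1 KO-labelled libraries and 89.4, 87.4 and 84.6 CPM in WT-labelled ones.

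Of 18 antiproteases tested outside the 10 genes, 14 were lower and 4 higher with the BAP1 KO label (median log2 fold change -3.42). Of these 18, 5 passed the filter only through the WT libraries and 1 only through the BAP1 KO ones. Wfdc18, a WAP-domain gene like Slpi and Wfdc2, had 0.216, 0.305 and 0.0837 CPM in BAP1 KO-labelled libraries and 22.3, 19.9 and 24.4 CPM in WT-labelled ones (log2 fold change -6.72, SE 0.19). Serpinb6b was lower at -5.61 (SE 0.18). Both passed the filter only through the WT libraries. With the BAP1 KO label, Wfdc18 had 8, 13 and 3 reads and Serpinb6b had 5, 5 and 5. Not every WAP-domain gene was lower: Wfdc1 stood at 16.6 ± 0.670 CPM with the BAP1 KO label and 11.5 ± 0.190 CPM with the WT label (SD, n = 3 each), higher by 0.53 (SE 0.061, edgeR adjusted p = 1.17e-05). Serpina3n, an acute phase inhibitor of serine proteases in the mouse, stood at 350.5 ± 3.03 CPM with the BAP1 KO label and 71.0 ± 1.76 CPM with the WT label, higher by 2.30 (SE 0.038, edgeR adjusted p = 1.37e-12).

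The acute phase list held 24 genes, of which 14 did not pass the count filter, 3 of them with no read in any library. Of the 10 tested, 6 were lower, 2 were higher and 2 did not pass, with a median log2 fold change of -1.79. F3, the tissue factor that starts coagulation, stood at 14.1 ± 0.635 CPM with the BAP1 KO label and 405 ± 15.5 CPM with the WT label (SD, n = 3 each; log2 fold change -4.85, SE 0.053, edgeR adjusted p = 1.46e-13), and the metalloreductase Steap4 was lower at -4.69 (SE 0.15, adjusted p = 2.54e-10). The metallothioneins Mt1 and Mt2, which bind zinc, were the 2 higher genes, by 3.36 (SE 0.073, edgeR adjusted p = 1.13e-11) and 3.67 (SE 0.066, adjusted p = 2.52e-12). Mt1 stood at 1121 ± 21.3 CPM with the BAP1 KO label and 109 ± 12.8 CPM with the WT label. Of the exon bases of Mt2, 73.5% overlap Gm45774.

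Most other complement components were higher with the BAP1 KO label, the direction of Cfb and not of C3. Of 12 tested, 9 were higher, 2 were lower and 1 did not pass, with a median log2 fold change of 1.12. C1qa, C1qb and C1qc, among the 9, are on the macrophage list as well. C4b, which forms the convertase of the classical and lectin routes together with C2, had 158, 168 and 154 CPM in BAP1 KO-labelled libraries and 6.04, 5.03 and 5.19 CPM in WT-labelled ones (log2 fold change 4.89, SE 0.070, edgeR adjusted p = 5.75e-13). C4a, which shares 30.6% of its 50-base stretches with C4b (and C4b 34.6% with C4a), was higher by 4.46 (SE 0.073, adjusted p = 1.37e-12), and C2, with 46.9% of its exon bases in overlapping models, by 3.65 (SE 0.048, adjusted p = 3.51e-13). C2, Cfb, C4a and C4b all belong to the MHC class III region of chromosome 17. Genes of that region were not examined as a set, so nothing is read from the shared place. The proteases C1s1 and Masp1 were lower, at -2.16 (SE 0.25, edgeR adjusted p = 1.44e-05) and -1.19 (SE 0.10, adjusted p = 1.01e-06), and 35.1% of the 50-base stretches of C1s1 occur in other genes, C1s2 most of all. Of the 23 genes 11 did not pass the filter, and 5 of these had no read, among them C6, C7, C8a and C8b of the terminal pathway, named after their values were seen.

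**Figure D3:**
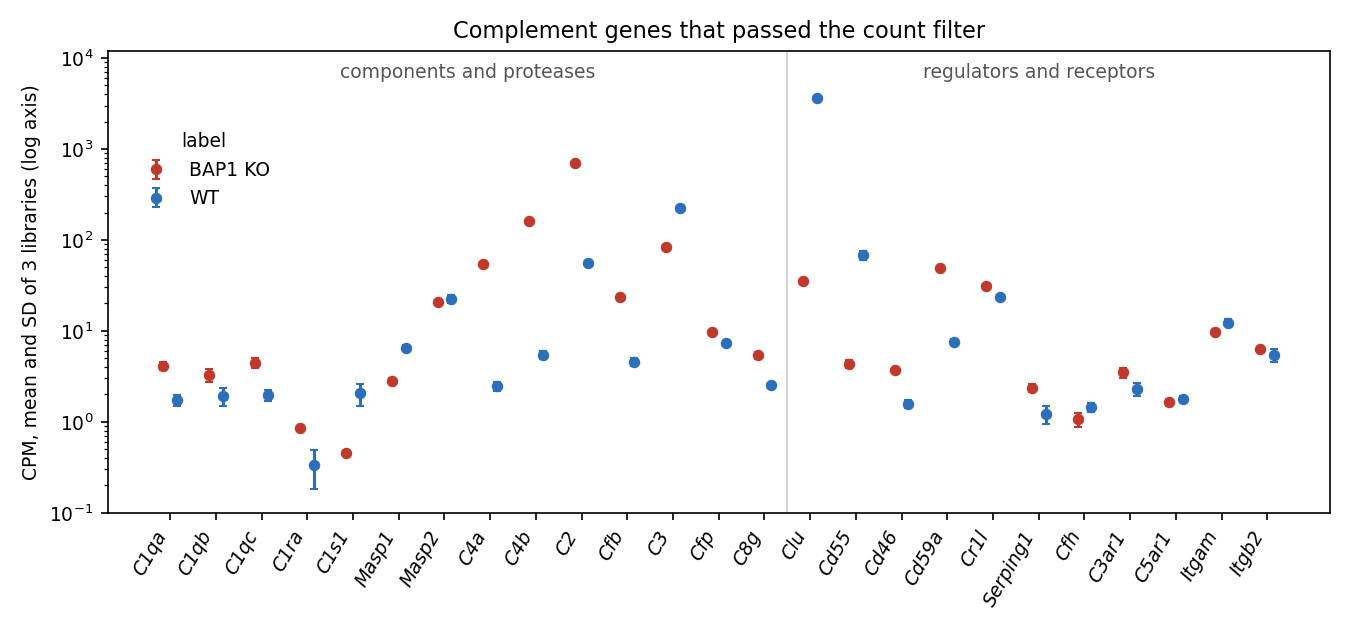
Mean CPM and SD of 3 libraries on a log axis for C3, Cfb and the other complement genes that passed the count filter, labelled BAP1 KO (red, left) and labelled WT (blue, right). C4a, C4b, C2 and Cfb lie higher in red, and C3, Clu and Cd55 lie higher in blue.

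Complement regulators and receptors went both ways. Of 11 tested, 5 were higher, 4 were lower and 2 did not pass, with a median log2 fold change of 0.21. Over all tested genes 39.4% were higher and 42.1% lower. Clusterin (Clu), a secreted chaperone that blocks the membrane attack complex, had 33.4, 35.5 and 36.1 CPM in BAP1 KO-labelled libraries, against 3569, 3429 and 3858 CPM in WT-labelled ones, a log2 fold change of -6.69 (SE 0.060, edgeR adjusted p = 7.14e-14). Of the membrane regulators, Cd55 (decay-accelerating factor) was lower at -3.97 (SE 0.10, adjusted p = 5.3e-11), while Cd59a, Cd46 and Cr1l were higher by 2.70, 1.22 and 0.40 (edgeR adjusted p = 2.24e-11, 2.97e-06 and 5.62e-05). Cd59a stood at 49.7 ± 2.20 CPM with the BAP1 KO label and 7.64 ± 0.486 CPM with the WT label (SD, n = 3 each). Of the exon bases of Cd46, 14.2% overlap A330023F24Rik. C3ar1, the receptor of the C3a fragment, stood at 3.50 ± 0.438 CPM with the BAP1 KO label and 2.29 ± 0.349 CPM with the WT label, higher by 0.60 (SE 0.14, edgeR adjusted p = 0.00257).

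Among receptors for the products of these genes, 5 of 11 tested were higher, 2 were lower and 4 did not pass, with a median log2 fold change of 0.05. The shares over all tested genes were 39.4% higher and 42.1% lower. Slc22a17, a receptor of lipocalin 2, had a level opposite to that of Lcn2: 96.5 ± 6.42 CPM in BAP1 KO-labelled libraries and 30.0 ± 2.11 CPM in WT-labelled ones (SD, n = 3 each; log2 fold change 1.68, SE 0.065, edgeR adjusted p = 1.15e-09). Lrp2, also a receptor of lipocalin 2 and named after its values were seen, did not pass. It stood at 1.23 ± 0.200 CPM with the BAP1 KO label and 1.19 ± 0.152 CPM with the WT label (log2 fold change 0.05, SE 0.18, edgeR adjusted p = 0.789). The 2 Toll-like receptors on the list parted. Tlr2 was lower at -2.63 (SE 0.098, adjusted p = 8.81e-10) and Tlr4 higher at 1.49 (SE 0.13, edgeR adjusted p = 1.45e-06). Plscr1 was lower at -2.15 (SE 0.076, edgeR adjusted p = 5.39e-10), with 12.3% of its 50-base stretches in other genes.

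Of 35 tested genes of the cytokine, receptor and transcription factor routes that act on these genes, 24 were lower, 10 were higher and 1 did not pass (median log2 fold change -1.10). The list also holds known inhibitors of these routes, with Nfkbia, Irak3 and Zc3h12a among the lower and Socs3 among the higher genes, named after their values were seen. Of the 35, 3 passed the filter only through the WT libraries. The cytokine Tnf was lower at -5.64 (SE 0.11, edgeR adjusted p = 6.52e-12), and so was Ehf, an epithelial ETS factor, at -5.04 (SE 0.093, adjusted p = 3.31e-12). Nfkbiz, which encodes the IkappaB-zeta cofactor needed for Lcn2 induction in mouse cells, had 16.6 ± 0.589 CPM with the BAP1 KO label and 103 ± 3.61 CPM with the WT label, lower at -2.63 (SE 0.050, edgeR adjusted p = 3.99e-12). Of the C/EBP factors, Cebpa, named after its values were seen, was lower at -2.18 (SE 0.085, edgeR adjusted p = 1.34e-09), with 4.59 ± 0.290 CPM with the BAP1 KO label and 20.8 ± 1.66 CPM with the WT label. Cebpb was lower at -0.92 (SE 0.10, adjusted p = 7.28e-06), and Cebpd was higher at 0.20 (SE 0.058, adjusted p = 0.00781); 20.7% and 15% of their exon bases overlap Tmem189 and Spidr. The Cebpd call was lost with library totals and with a filter of 5 CPM. Lifr, a receptor of the IL-6 cytokine family, was higher by 0.96 (SE 0.085, edgeR adjusted p = 1.44e-06). The 16 fibroblast markers summed to between 205 and 223 CPM with the BAP1 KO label and between 1248 and 1283 CPM with the WT label, with 13 of 15 tested lower, 2 higher and a median of -2.59. The part of fibroblast, keratinocyte, macrophage and melanocyte markers in the lists above was not tested.

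**Figure D4:**
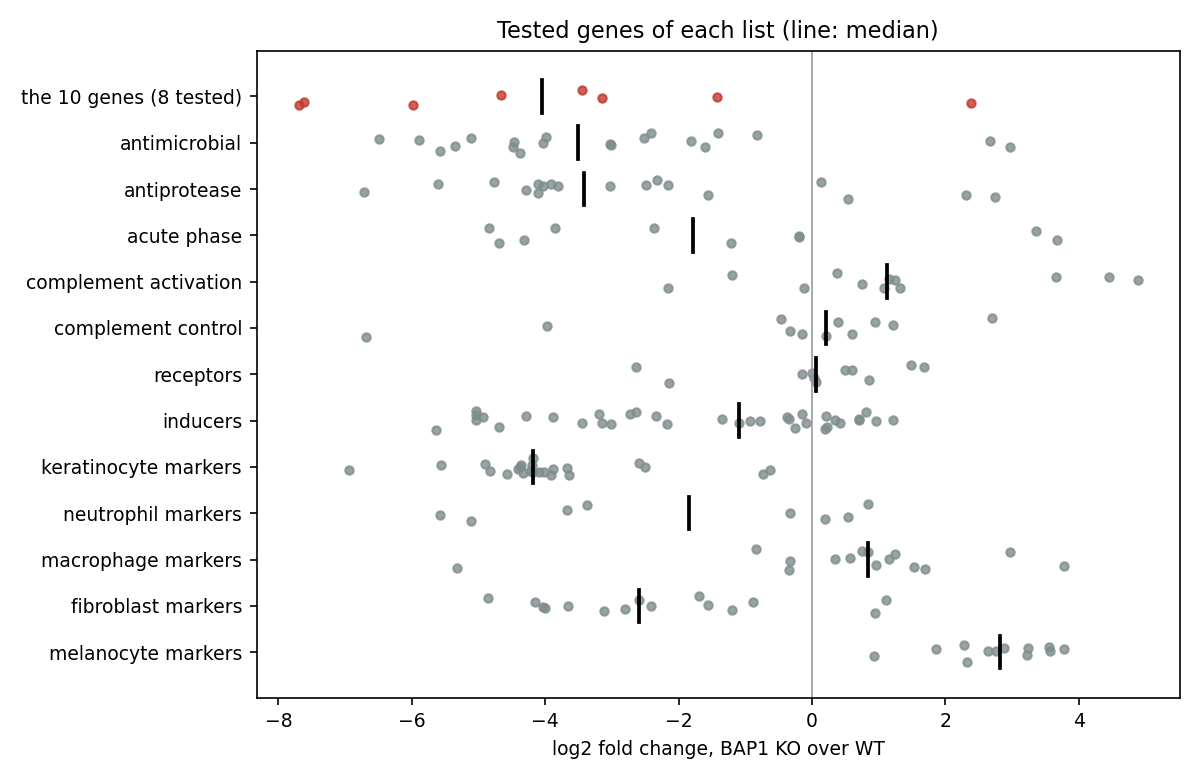
Log2 fold change of BAP1 KO over WT for each tested gene of the 10 genes (red) and of the other lists (grey), with the median of each list as a black line; the vertical grey line marks 0. The 8 tested genes, picked with the contrast known, run from -7.70 to 2.39 with a median of -4.05. The median is -4.19 for the keratinocyte markers and 1.12 for the complement activation list.

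The 5 tested genes whose profile over the 6 libraries lay closest to that of Lcn2, by root mean square distance of centred log2 CPM, were Olr1, Plekhs1, Ivl, Clu and Slc5a8, at distances of 0.300 to 0.590 log2 units. Olr1, a scavenger receptor, had 0.164 ± 0.00278 CPM with the BAP1 KO label and 64.8 ± 6.81 CPM with the WT label. Slc5a8, a monocarboxylate transporter, had 0.278 ± 0.0493 CPM with the BAP1 KO label and 31.8 ± 4.22 CPM with the WT label (SD, n = 3 each). Each gene is centred over the 6 libraries, so genes with a like difference between the 2 groups come out closest.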

How the data were processed

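Polyadenylated RNA of 6 libraries of mouse melanocytes was measured (BAP1 KO label: 3, WT label: 3). Per the labels' protocols, TruSeq v2 libraries, which do not mark strand, gave single reads of 50 bases. Per the submitters' processing notes, GSNAP and GRCm38 were used; no counting tool or annotation is named there. Each deposited file gives, per the file headers, the count of reads aligned uniquely to each gene model and RPKM adjusted by a size factor by the authors.

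Gene IDs were matched to RefSeq on GRCm38.p6 (31049 of 36528); 1.05% of reads lay in models with no symbol. Genes were kept by filterByExpr (minimum count 10, minimum total 15), scaled by TMM and tested with edgeR 4.0.16 in R 4.3.3 (glmQLFit, glmQLFTest, no covariate), with Benjamini-Hochberg adjustment over all 17121 genes. The standard error is the absolute log2 fold change over the root of F. CPM are given as mean ± SD of 3 libraries. Depth of 33987690 to 43773769 reads limits genes under 3 reads a library. Overlapping exons, on whichever strand, and shared 50-base stretches came from GENCODE M21, and are given above 10%; the RPKM computed here used its merged exons.

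The 10 genes and all lists were chosen with earlier results of these data known. Named are the 10 genes and, from every other list, the 2 highest and the 2 lowest log2 fold changes among called genes. Only called genes that reach 2 CPM in the higher group enter there. The rule also names a set of regulators and markers whatever their values, and the 5 genes outside the 10 closest to Lcn2 (prior count 2). One gene that this rule names is not reported here. Loricrin and Dcd had no match and Il17c had no row. Alternatives were other scalings and count filters, DESeq2 1.42.0, limma-voom (limma 3.58.1), the robust option, a stricter threshold and leaving out each library.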

Additional observations from a re-analysis of the deposited data

How the results depend on the processing

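Over the 14 alternatives the log2 fold changes of the 8 tested genes kept their direction wherever the gene stayed in the test (Pglyrp1 left it at 5 CPM). The pick used this contrast and every alternative used the same libraries. The ranges therefore describe the processing alone and add no support for a difference. Lcn2 ranged from -7.77 to -7.61, Ltf from -8.10 to -7.31, Wfdc2 from -6.06 to -5.90, Slpi from -4.74 to -4.58, Saa3 from -3.23 to -3.04, C3 from -1.50 to -1.36, Cfb from 2.31 to 2.47 and Pglyrp1 from -4.22 to -3.13. No result reversed. With at least 5 CPM in 3 libraries fewer genes were tested, and the counts of higher genes were 2 for other antiproteases, 4 for complement components, 2 for complement regulators, 3 for receptors, 3 for macrophage markers and 0 for neutrophil markers, of which 3 were lower. With no count filter 4 other antimicrobial genes were higher. The count of higher neutrophil markers was 1 with library totals, with DESeq2, at an adjusted p under 0.01 and without BAP1 KO replicate 1, BAP1 KO replicate 3 or WT replicate 1, within a range of 1 to 2 over the libraries left out; Mmp8 is the gene concerned. Cebpd lost its call with library totals (0.14) and at 5 CPM (0.12). The other counts stayed within 1.5 times. Library totals moved the median of all genes by -0.06 and the 5 CPM filter by -0.08. No paired analysis was possible because the labels give no replicate number. The replicate numbers used here only follow the order in which the libraries of each group are listed. With no count filter all 10 genes entered the test. Saa1 and Camp, which the count filter leaves out, rest there on few reads, so no call is read for them. Camp had too few reads for a statement about a change.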
